A study of Mus musculus with 6 samples.

Results

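The genes described here are 10 named genes through which muscle receives and answers thyroid hormone and glucocorticoid. They were taken by name for their known roles, with earlier results of these data known. They were matched by Ensembl ID to GENCODE M21 symbols, and they are 10 of 56262 genes in the count table. All 10 were also among the 22071 genes with enough counts to be tested. Leg muscle was collected from mouse fetuses at embryonic day 18.5, with 3 wild-type (WT) and 3 *SYISL* knockout (KO) samples. *SYISL* is a long noncoding RNA of muscle, and neither the knockout allele nor the strain is described in the labels. Males and females of the same genotype were mated, so each KO fetus had a KO dam as well, and effects of the fetal and the maternal genotype cannot be told apart. The samples are numbered within each genotype, but nothing states whether they came from separate litters or single fetuses, and p-values measure only the spread between these samples.

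Thyroid hormone is secreted mainly as thyroxine and becomes active inside tissues, where the deiodinase encoded by *Dio2* removes an iodine to make triiodothyronine and the enzyme encoded by *Dio3* inactivates both forms. Triiodothyronine binds nuclear receptors encoded by *Thra* and *Thrb*, which sit on DNA as partners of retinoid X receptors and exchange corepressors for coactivators when hormone arrives. In muscle the hormone is known for driving the switch from developmental and slow to fast contractile proteins around birth. Glucocorticoid binds the receptor encoded by *Nr3c1*, which waits in the cytosol on heat shock chaperones and then moves to the nucleus. In the fetus, glucocorticoid in the blood rises before birth. Neither hormone was measured in these samples.

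Upstream sequences were taken from RefSeq (build GRCm38.p6) for 7 of the 10 genes, with 15 windows of 250 bases before a transcript start. *Thra* and *Hr* had no entry, and *Nr3c1* was left out of the search. Each run below ends before any exon annotated in GENCODE M21. Capitals mark 6 motifs, searched on both strands. They are the glucocorticoid receptor half-site TGTTCT, the full palindrome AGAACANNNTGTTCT, which contains 2 such half-sites, the nuclear receptor half-site AGGTCA, the cAMP response element TGACGTCA, the GC box GGGCGG and the TATA box TATAAA. *Klf9* is shown because it had the largest rise, *Thrb* because it fell, and *Dio2* and *Sgk1* because their windows hold textbook elements of their class.
*Klf9*, chr19:23140976-23141225, plus strand: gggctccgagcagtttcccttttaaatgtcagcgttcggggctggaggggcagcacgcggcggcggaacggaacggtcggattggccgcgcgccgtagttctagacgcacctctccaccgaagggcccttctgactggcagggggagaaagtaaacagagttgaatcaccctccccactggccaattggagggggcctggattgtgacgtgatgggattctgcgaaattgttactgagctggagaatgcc
*Thrb*, chr14:17660710-17660891, plus strand: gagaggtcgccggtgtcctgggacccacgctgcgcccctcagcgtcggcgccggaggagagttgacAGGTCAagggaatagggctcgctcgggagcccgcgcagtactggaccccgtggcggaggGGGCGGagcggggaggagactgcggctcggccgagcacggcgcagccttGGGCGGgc
*Dio2*, chr12:90739039-90739288, minus strand: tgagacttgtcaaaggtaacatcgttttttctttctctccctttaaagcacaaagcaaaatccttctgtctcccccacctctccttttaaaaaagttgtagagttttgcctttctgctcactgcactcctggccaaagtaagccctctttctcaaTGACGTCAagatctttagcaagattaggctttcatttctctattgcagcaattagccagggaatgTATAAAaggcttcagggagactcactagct
*Sgk1*, chr10:21993640-21993889, plus strand: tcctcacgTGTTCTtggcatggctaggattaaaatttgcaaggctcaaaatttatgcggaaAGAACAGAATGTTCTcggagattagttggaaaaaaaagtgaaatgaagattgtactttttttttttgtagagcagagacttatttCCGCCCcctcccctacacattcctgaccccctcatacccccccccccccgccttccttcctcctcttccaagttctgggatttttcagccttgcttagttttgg

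The *Sgk1* window holds the full palindrome, 189 to 175 bases before the start of 1 of its transcripts, together with a further half-site and a GC box. Only 3 of 32851 windows of this length before RefSeq transcript starts hold it, which is 0.00913%, whereas the half-site alone is found in 16.1%. The *Thrb* run holds 1 nuclear receptor half-site, which 14% of all windows hold, and 2 GC boxes, a motif found in 32.7% of windows. The *Dio2* run holds a cAMP response element 95 to 88 bases before the start, found in 1.55% of windows, and a TATA box, found in 12.4%. None of these letters is in the *Klf9* run. The palindrome was in no other run of these genes, including the other *Sgk1* runs. Of the runs not printed, that of *Fkbp5* held GC boxes only. For *Tsc22d3*, 1 run held a half-site and another held none of the motifs. These matches describe the letters only.

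Counts per gene were scaled to counts per 1000000 (CPM) with TMM factors, KO was compared with WT in edgeR's quasi-likelihood test, and p-values were adjusted by Benjamini-Hochberg over all 22071 genes. Each adjusted p comes from this fit, SE is the standard error of a log2 fold change, and values written with ± are a mean and SD over 3 samples. A gene was called at an adjusted p under 0.05 together with a fold change over 1.5. Of the 10 genes, *Klf9* was called higher and *Thrb* and *Hr* were called lower in KO, 3 of 10 where 16.7% of all genes tested were called. The shares of all genes called higher and lower were 8.31% and 8.39%. A further 6 genes passed the adjusted p with a smaller fold change, so 9 of 10 passed it against 45% of all genes. The values of the genotypes did not overlap for 8 of the 10, against 55.9% of all genes tested. For a single gene, the smallest p that an exact permutation test of 3 against 3 samples can give is 0.1.

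**Figure D1:**
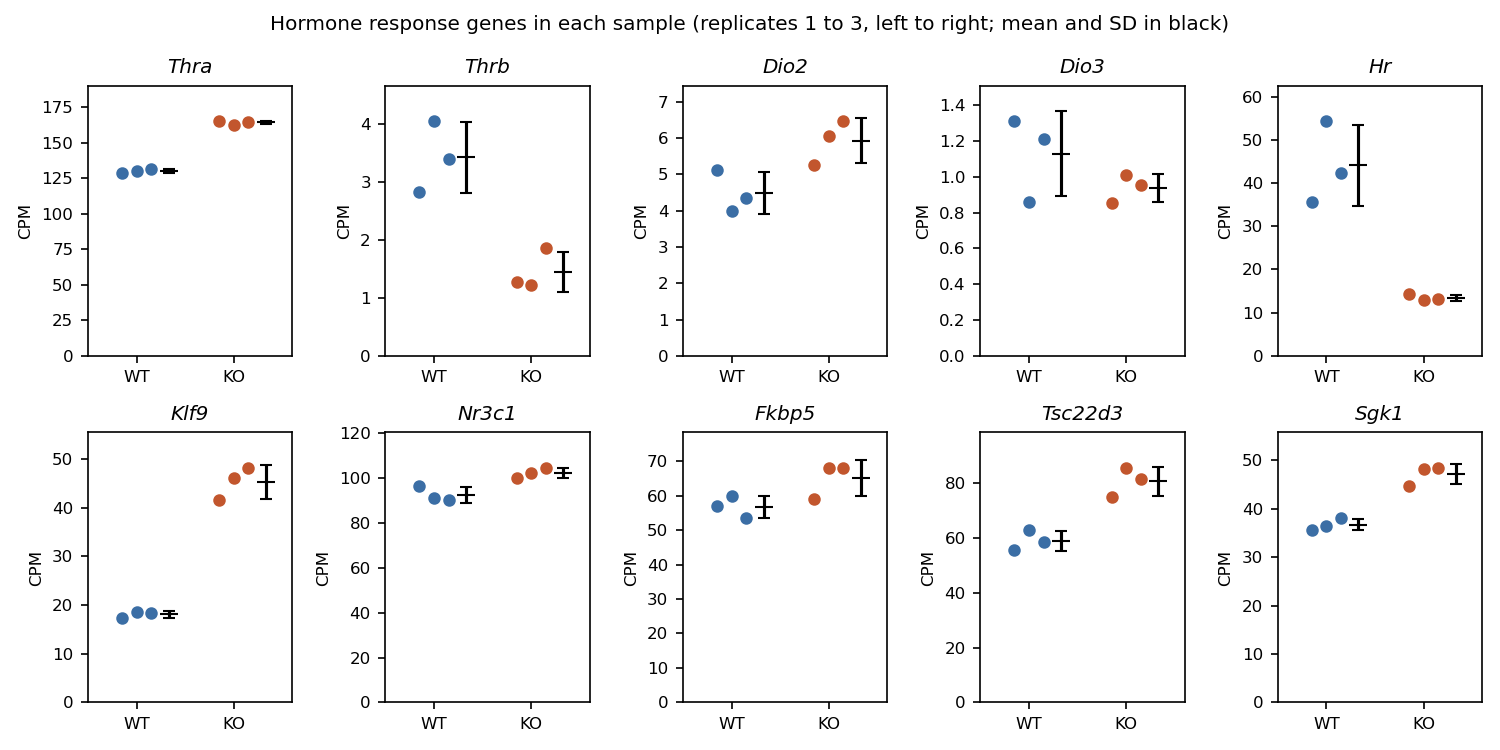
Level of each of the 10 genes in CPM (vertical axis, from 0) in the 3 WT (blue) and 3 KO (orange) samples, with the mean and SD of each genotype in black. *Klf9* is higher and *Hr* and *Thrb* are lower in every KO sample than in every WT sample, and *Dio3* and *Fkbp5* are the genes whose values overlap.

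Samples held between 82054811 and 102233181 counts. The host gene of *SYISL*, *Synpo2*, averaged 136 ± 4.21 CPM in WT against 214 ± 18.9 in KO (SD, n = 3 each), and the lncRNA itself is not a symbol of the annotation, so its loss was not checked here. Muscle genes marked the tissue in all 6 samples, with 8 markers such as *Acta1* and *Ckm* summing to 19040 to 21370 CPM in WT and 40720 to 49970 CPM in KO. Of these, 7 were called higher, and the embryonic myosin gene *Myh3* was not (log2 fold change -0.040, edgeR adjusted p = 0.651). Markers of skin keratinocytes were also abundant in WT, where 12 of them summed to 17620 to 25830 CPM, against 1016 to 1138 CPM in KO, a ratio of means of 19.4. All 12 were called lower in KO and none was at 0 in any sample. The basal keratin *Krt5* averaged 1001 CPM in WT against 257 in KO, and the suprabasal keratin *Krt10* averaged 5837 against 79.3 CPM. Markers of red blood cells fell likewise, from 3927 to 5167 CPM in WT to 545 to 664 CPM in KO, with 5 of 5 called lower. Adipocyte markers went the other way, from 106 to 138 CPM in WT to 340 to 402 CPM in KO, with 6 of 7 called higher and the brown fat gene *Ucp1* called lower, from an average of 0.527 to 0.129 CPM. The adiponectin gene *Adipoq* rose from 7.03 to 44.9 CPM. The summed levels of fibroblast, endothelial, macrophage and glial markers in KO were 1.17, 1.17, 1.62 and 1.54 times those in WT. In such bulk samples, fewer cells of a type and less RNA per cell cannot be told apart.

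*Klf9* (ENSMUSG00000033863.2, chromosome 19, 23141226 to 23168134 in mm10, plus strand) encodes a zinc finger repressor that both thyroid hormone and glucocorticoid are known to induce. Its level in CPM was 17.4, 18.5 and 18.4 in the WT samples, and in the KO samples it was 41.5, 46.1 and 48.2. The genotypes were far apart and each was tight, with a coefficient of variation of 3.47% in WT and 7.59% in KO. This was a 2.51-fold rise, or 1.33 on the log2 scale (SE 0.061, edgeR adjusted p = 2.62e-07). Beside it, the summed skeletal muscle markers in KO were 2.29 times those in WT. KO replicate 1 was the lowest KO sample both for *Klf9* and for these markers, whereas in WT the sample with the lowest *Klf9*, replicate 1, had the highest marker sum. The part of muscle content in the rise was not tested.

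*Hr* (ENSMUSG00000022096.14, chromosome 14, 70552212 to 70573548, plus strand) encodes the hairless corepressor, which binds the thyroid hormone receptor, is induced by the hormone in the brain and is needed in the hair follicle. The WT samples had 35.7, 54.3 and 42.3 CPM, and the KO samples 14.3, 12.9 and 13.1. Every WT sample exceeded every KO sample, and the WT samples were spread more widely, with a coefficient of variation of 21.4% against 5.57% in KO. The log2 fold change was -1.71 (SE 0.13, edgeR adjusted p = 6.63e-06), so that the WT level was 3.28 times the KO level.

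*Thrb* (ENSMUSG00000021779.17, chromosome 14, 17660261 to 18038090, plus strand) encodes the beta receptors of thyroid hormone. It was scarce, its WT samples holding 267, 334 and 358 counts and its KO samples 119, 117 and 180. As CPM these were 2.82, 4.04 and 3.39 against 1.27, 1.23 and 1.85. The highest KO value stayed under the lowest WT value. On average the WT level was 2.35 times the KO level, a log2 fold change of -1.23 (SE 0.18, edgeR adjusted p = 4.58e-04).

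Within WT, *Hr* and *Thrb*, which fell, and *Klf9* and *Tsc22d3*, which stood higher in KO, were all highest in replicate 2 and lowest in replicate 1, the order of the summed keratinocyte markers (17620, 25830 and 19450 CPM in WT replicates 1, 2 and 3). In KO, *Hr* was highest in replicate 1, which had the lowest marker sum, and *Thrb* was lowest in replicate 2, which had the highest. The KO marker sums lay close together, at 1016 to 1138 CPM. *Thrb* had 119 counts in KO replicate 1 and 117 in KO replicate 2, too near each other to give an order. Single markers fell by unequal amounts, with WT levels from 2.54 times (*Trp63*) to 73.6 times (*Krt10*) those of KO. Without WT replicate 2, the log2 fold change was -1.54 for *Hr* and -1.10 for *Thrb*, and both were still called. The part of skin in the falls was not tested.

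**Figure D2:**
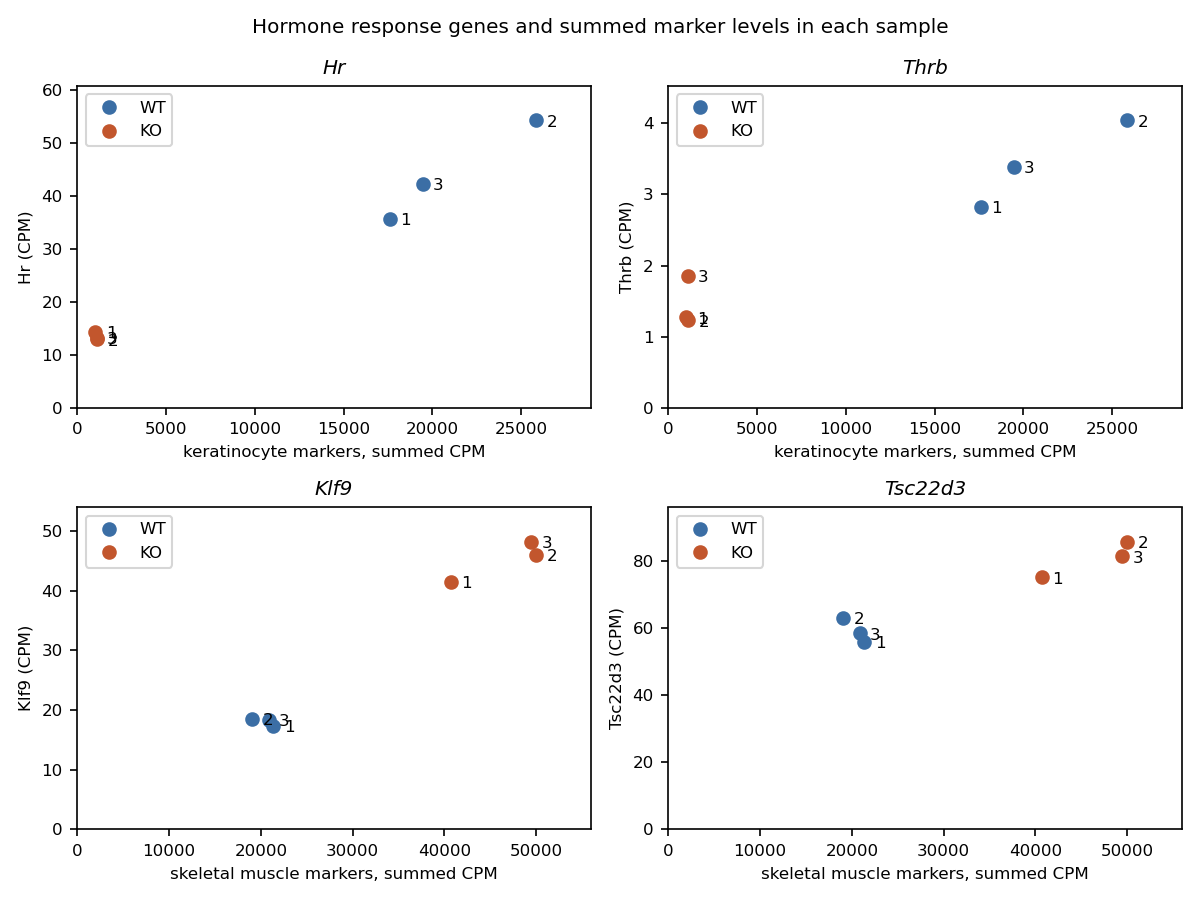
*Hr* and *Thrb* against the summed CPM of 12 keratinocyte markers and *Klf9* and *Tsc22d3* against the summed CPM of 8 skeletal muscle markers, with 1 point per sample, WT in blue, KO in orange and the replicate number beside each point. The genotypes form separate clusters on every axis, and in WT the points of *Hr* and *Thrb* stand in the order of the keratinocyte sum, from replicate 1 at 17620 CPM to replicate 2 at 25830 CPM.

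*Thra* (ENSMUSG00000058756.13, chromosome 11, 98740638 to 98769006, plus strand) encodes the alpha receptor and, from the same gene, a splice form that does not bind hormone, and counts per gene do not separate these. Per kb of exon it was the most abundant of the 10 genes in both genotypes, with 128, 130 and 131 CPM in the WT samples and 165, 163 and 165 CPM in the KO samples. The samples of a genotype differed by no more than about counting noise, with coefficients of variation of 1.05% and 0.781% where counting alone gives 0.846%. With this spread, a modest difference was clear of the replicates, at a log2 fold change of 0.34 (SE 0.035, edgeR adjusted p = 5.08e-05), and it stayed under the 1.5-fold threshold. The end of *Thra* shares 263 exon bases with *Nr1d1*, a clock repressor gene on the opposite strand, and the strand setting of the counting is not stated. The summed exons of *Nr1d1* stood at 7.49 ± 0.667 CPM in WT against 16.5 ± 1.5 in KO and were called higher, with a difference of 9.02 CPM beside the 34.1 CPM of *Thra*.

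The balance of the receptor genes was compared as a ratio within each sample, which needs no scaling between libraries. Per kb of exon, *Thra* exceeded *Thrb* 73.0, 51.7 and 62.0 times in the WT samples and 208, 212 and 142 times in the KO samples. The log2 ratio of *Thrb* to *Thra* was -5.95 ± 0.249 in WT and -7.53 ± 0.323 in KO (SD, n = 3 each). The difference of -1.58, a 2.99-fold lower ratio in KO, had no overlap between genotypes (exact permutation test, two-sided, p = 0.1, the smallest possible).

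*Dio2* (ENSMUSG00000007682.6, chromosome 12, 90724552 to 90738438, minus strand), the activating deiodinase, had 5.11, 4.01 and 4.34 CPM in the WT samples against 5.26, 6.07 and 6.47 in the KO samples. The lowest KO value lay just above the highest WT value. *Dio2* stood 0.40 higher on the log2 scale (SE 0.11, edgeR adjusted p = 0.0148), under the fold threshold, and the adjusted p exceeded 0.05 when WT replicate 3 (0.0568), KO replicate 2 (0.0542) or KO replicate 3 (0.0712) was left out. *Dio2* shares 100 exon bases with the antisense gene *Gm26512*, which had at most 17 counts in any sample. *Dio3* (ENSMUSG00000075707.5, chromosome 12, 110279068 to 110281097, plus strand), the inactivating deiodinase, had 71 to 128 counts per sample. Its 1.31, 0.859 and 1.21 CPM in WT overlapped the 0.854, 1.01 and 0.956 CPM in KO. The log2 difference of -0.27 did not pass the test (edgeR adjusted p = 0.235), and its 95% interval of -0.66 to 0.12 covers a fall past the 1.5-fold threshold as well as a small rise. Without WT replicate 2 the adjusted p was 0.0419, at a log2 fold change of -0.43.

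Within samples, *Dio2* exceeded *Dio3* per kb of exon 1.36, 1.62 and 1.25 times in WT and 2.14, 2.09 and 2.35 times in KO. All 3 KO ratios lay above all 3 WT ratios. The log2 ratio was 0.48 ± 0.193 in WT and 1.13 ± 0.0888 in KO (SD, n = 3 each), a difference of 0.65 or 1.57-fold (exact permutation test, two-sided, p = 0.1, the smallest possible).

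*Nr3c1* (ENSMUSG00000024431.15, chromosome 18, 39410545 to 39519421, minus strand), the glucocorticoid receptor gene, was nearly level between genotypes. The WT samples had 96.3, 90.9 and 90.1 CPM, and the KO samples lay just above them with 100.1, 102.1 and 104.6. The log2 fold change was 0.15 (SE 0.040, edgeR adjusted p = 0.0153), with a 95% interval of 0.055 to 0.24 that lies below the 1.5-fold threshold. With library size as the only scaling it was 0.077 and the adjusted p was 0.181, and the adjusted p also exceeded 0.05 without WT replicate 2 (0.0509), WT replicate 3 (0.0764) or KO replicate 3 (0.0695).

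*Tsc22d3*, *Sgk1* and *Fkbp5*, the glucocorticoid targets described here beside *Klf9*, stood higher in KO by small amounts, none past the fold threshold. *Tsc22d3* (ENSMUSG00000031431.13, chromosome X, 140539528 to 140600659, minus strand) encodes a leucine zipper protein that carries much of the anti-inflammatory action of glucocorticoid. Its 3 WT values were 55.7, 62.9 and 58.4 CPM, and its 3 KO values 75.0, 85.6 and 81.3. The gap between genotypes exceeded the spread within them, 0.45 on the log2 scale (SE 0.059, edgeR adjusted p = 2.29e-04).

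*Sgk1* (ENSMUSG00000019970.15, chromosome 10, 21882184 to 21999903, plus strand) encodes a kinase that raises sodium transport and cell survival, and its window with the full palindrome is printed above. Levels of 35.7, 36.4 and 38.0 CPM in WT compared with 44.8, 48.2 and 48.5 in KO. All KO samples lay above all WT samples, by 0.36 on the log2 scale (SE 0.045, edgeR adjusted p = 1.70e-04). *Fkbp5* (ENSMUSG00000024222.17, chromosome 17, 28399094 to 28517527, minus strand) encodes the cochaperone that lowers the hormone affinity of the receptor in a feedback loop. Its WT values of 56.9, 59.9 and 53.5 CPM overlapped its KO values of 59.1, 68.1 and 68.0 CPM, since KO replicate 1 lay below WT replicate 2. Its log2 fold change of 0.20 (SE 0.063, edgeR adjusted p = 0.0296) passed the test by the smallest margin of the target genes among the 10. The adjusted p was 0.0727 with library size as the only scaling and 0.0618, 0.117, 0.110 and 0.109 without WT replicate 1, WT replicate 3, KO replicate 2 and KO replicate 3.

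**Figure D3:**
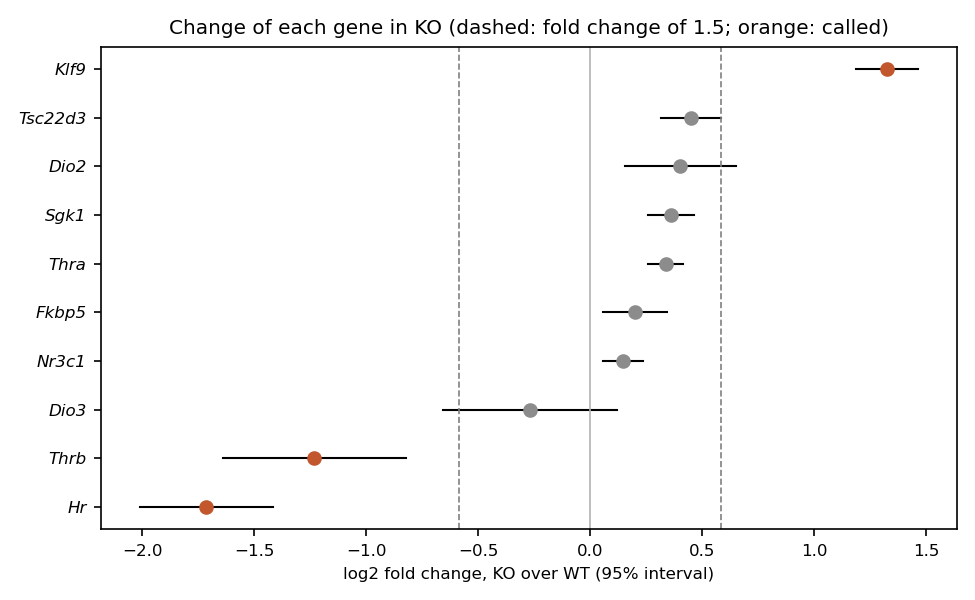
Log2 fold change of KO over WT for each of the 10 genes, with its 95% interval as a line, called genes in orange and dashed lines at the 1.5-fold threshold in both directions. *Klf9* at 1.33 and *Thrb* and *Hr* at -1.23 and -1.71 lie outside the dashed lines with their whole intervals, and the other 7 points lie between them.

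The rise of *Klf9* was therefore compared with those of *Fkbp5*, *Sgk1* and *Tsc22d3* within each sample, with ratios chosen after their values were seen. The ratio of *Klf9* to *Fkbp5* was 2.18 times higher in KO than in WT, that of *Klf9* to *Sgk1* 1.95 times and that of *Klf9* to *Tsc22d3* 1.83 times, with no overlap between genotypes for any of these. Between the shared target *Klf9* and the thyroid hormone target *Hr*, the ratio moved 8.10-fold. With the ratios of the receptor and the deiodinase genes, 6 ratios were computed. The exact permutation p was 0.1, the smallest possible, for each before and after Benjamini-Hochberg adjustment. The ratios with *Klf9* paired it with genes already seen to rise less or to fall, so their p carries no weight as a test. They do not set *Klf9* apart from glucocorticoid targets in general. Of 22 further targets tested, 8 were called higher and 1 lower, with a median log2 fold change of 0.27. Among these, *Pck1* (3.79 on the log2 scale) and *Zbtb16* (1.42) rose more than *Klf9*, and *Klf15* (1.22) rose slightly less.

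KO replicate 1 was the lowest of the KO samples for 7 of the 10 genes, among them *Klf9*, *Dio2* and the glucocorticoid members, and its skeletal muscle markers summed to 40720 CPM against 49970 and 49460 CPM in KO replicates 2 and 3. Without this sample the log2 fold changes were 1.39 for *Klf9*, 0.51 for *Tsc22d3*, 0.40 for *Sgk1* and 0.27 for *Fkbp5*.

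Levels were compared between genes only per kb of exon, as CPM per kb. In WT the order from the top was *Thra* (28.2), *Tsc22d3* (13.6), *Nr3c1* (12), *Sgk1* (7.48), *Hr* (6.37), *Fkbp5* (6), *Klf9* (3.75), *Dio2* (0.771), *Dio3* (0.555) and *Thrb* (0.462). The samples of *Sgk1* and *Hr*, of *Hr* and *Fkbp5*, and of *Dio3* and *Thrb* overlapped, so these neighbours had no fixed order. In KO *Klf9* stood at 9.40 CPM per kb, above *Fkbp5* (6.87) and overlapping *Sgk1* (9.61), and *Hr* stood at 1.94, below *Fkbp5*. *Thrb* was alone at the bottom in KO, at 0.196 CPM per kb.

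**Figure D4:**
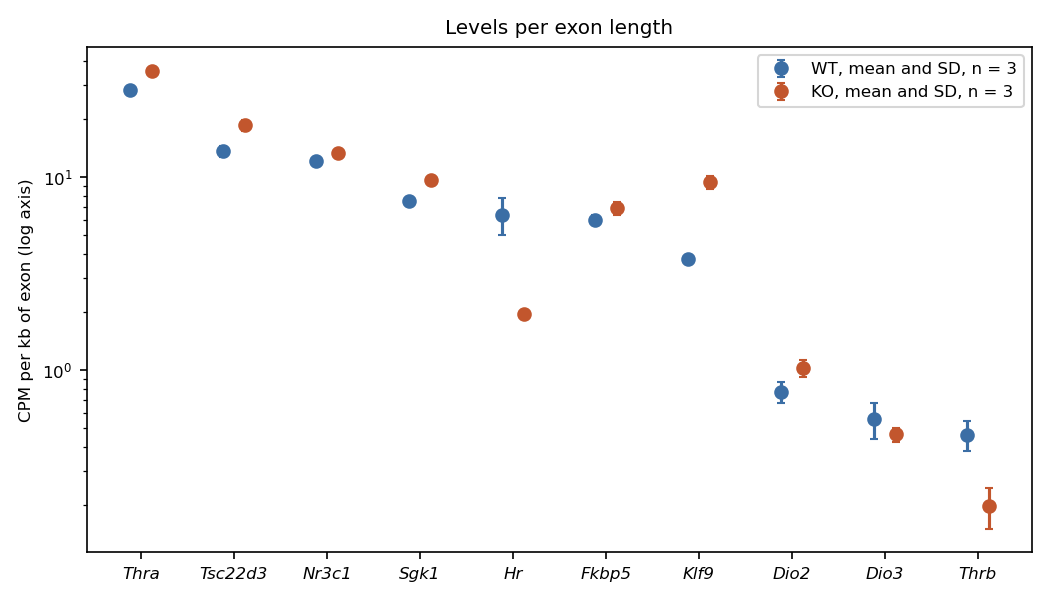
Mean level of each gene in CPM per kb of exon on a log axis, in WT (blue) and KO (orange), with the SD over 3 samples as bars and genes in the WT order. *Klf9* moves from 3.75 to 9.40 and *Hr* from 6.37 to 1.94, while *Thra* stays at the top and *Thrb* at the bottom in KO.

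Genes around these 10 were taken from lists written for each pathway, also with earlier results of these data known. Of 31 further thyroid hormone genes, 30 were tested, and 6 were called higher and 1 lower. These were 23.3% of the 30, where 16.7% of all genes tested were called. The median log2 fold change was 0.028 against -0.0041 for all genes tested. Among the transporters, *Slc16a10*, which carries aromatic amino acids and thyroid hormone, went from 19.5 ± 0.0769 CPM in WT to 23.6 ± 0.447 in KO (log2 fold change 0.27, edgeR adjusted p = 9.93e-04), under the fold threshold. *Slc7a5*, an amino acid transporter that also carries thyroid hormone, fell by 0.73 on the log2 scale, from 91.5 ± 6.54 to 55.2 ± 4.91 CPM (edgeR adjusted p = 3.07e-05), and was the gene called lower. The summed markers in WT were 19.4 times those in KO for keratinocytes and 7.58 times for red blood cells. Their part in the fall of *Slc7a5* was not tested. *Dio1*, the deiodinase of liver and kidney, had at most 6 counts in any sample and was not tested.

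The receptor partners and cofactors stayed within the fold threshold. Of 13 tested, edgeR called 0 in either direction, as did DESeq2 and limma-voom, and 3 had an unadjusted p under 0.05 in edgeR. *Rxra*, the broadly expressed retinoid X receptor, measured 135 ± 11.3 CPM in WT against 103 ± 2.44 in KO (log2 fold change -0.39, edgeR adjusted p = 5.26e-04). The part of skin and red blood cells in this fall was not tested. *Rxrg*, the form typical of muscle, had 19.6 ± 0.622 and 25.2 ± 2.30 CPM (log2 fold change 0.36, edgeR adjusted p = 0.00237). The median of the 13 was -0.050.

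Of 10 genes known to answer thyroid hormone in muscle or fat, 6 were called higher, where 8.31% of all genes tested were. The median log2 fold change of the 10 was 0.97. *Thrsp*, a lipogenic gene, rose by 2.28 on the log2 scale, from 4.10 ± 0.874 to 20.0 ± 0.938 CPM. *Atp2a1*, the calcium pump of fast fibers, rose from 613 ± 44.0 to 1780 ± 207 CPM (1.54 on the log2 scale). *Slc2a4*, the insulin-regulated glucose transporter, rose from 30.4 ± 0.639 to 76.3 ± 12.1 CPM (1.33), and the mitochondrial coactivator gene *Ppargc1a* rose from 8.77 ± 0.720 to 17.8 ± 1.82 CPM (1.02). The others called were *Ucp3* (1) and *Myh7* (0.93), named after their values were seen, and *Myh7* is the slow myosin gene that thyroid hormone is known to lower. Several of these are muscle or fat genes, and in KO the summed markers of skeletal muscle (7 of 8 called higher) were 2.29 times those in WT and those of adipocytes (6 of 7) 3 times, whose part in these rises was not tested.

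Of 33 further glucocorticoid genes, 32 were tested, and 9 were called higher and 1 lower, with a median log2 fold change of 0.14. Called genes were 31.25% of the 32, against 16.7% of all genes tested. The enzymes that set the supply of active hormone were low. *Hsd11b1*, which regenerates active glucocorticoid, had 8.17, 2.48 and 3.84 CPM in WT, overlapping the 3.16, 4.24 and 4.08 of KO, and did not pass the test (edgeR adjusted p = 0.471). Its log2 difference was -0.34 with all samples and 0.27 without WT replicate 1, the high sample. *Hsd11b2*, which inactivates the hormone, had 2.03, 2.40 and 2.44 CPM in WT, below the 4.20, 4.61 and 4.55 of KO. It rose by 0.96 on the log2 scale (SE 0.096, edgeR adjusted p = 3.85e-05). *Nr3c2*, the mineralocorticoid receptor gene, had 9.14 ± 0.491 and 10.3 ± 0.483 CPM (edgeR adjusted p = 0.0557).

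The chaperones that hold the receptor ready were a little lower in KO. All 6 (*Hsp90aa1*, *Hsp90ab1*, *Ptges3*, *Fkbp4*, *Stip1* and *Hspa8*) were lower in every KO sample than in every WT sample. Of all genes tested, 55.9% had no overlap between genotypes. The log2 fold changes of the 6 lay between -0.37 and -0.17, with a median of -0.25. Each passed the adjusted p, as did 45% of all genes tested. Of the 6, 0 passed the fold threshold in edgeR, DESeq2 or limma-voom, with 6 at an unadjusted p under 0.05 in edgeR. The summed markers of keratinocytes and red blood cells were also lower in KO, and their part in these falls was not tested.

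Of the 23 other glucocorticoid targets, 22 were tested and 8 were called higher and 1 lower, with a median log2 fold change of 0.27. Called genes were 40.9% of the 22, against 16.7% of all genes tested. *Pck1*, the gluconeogenic enzyme gene, held 65, 5 and 64 counts in the WT samples against 549, 621 and 687 in KO, a rise of 3.79 on the log2 scale (SE 0.39). *Zbtb16*, a transcription factor gene strongly induced by glucocorticoid, rose from 13.5 ± 0.588 to 35.9 ± 2.62 CPM (1.42 on the log2 scale, edgeR adjusted p = 2.39e-07). *Klf15*, which turns on amino acid breakdown in muscle, rose from 5.31 ± 0.247 to 12.4 ± 1.43 CPM (1.22), and *Pdk4*, which restrains pyruvate oxidation, rose from 14.9 ± 0.228 to 29.5 ± 4.94 CPM (0.99). *Cebpb* was called lower, from 13.0 ± 3.66 to 7.17 ± 0.767 CPM (log2 fold change -0.85, edgeR adjusted p = 0.00306), and its fall was 0.60 on the log2 scale without WT replicate 2, its highest sample and that of the keratinocyte markers. *Tat*, a classical target in liver, had at most 5 counts in any sample and was not tested. *Klf15*, *Pdk4* and *Slc2a4* are abundant in mature muscle and *Pck1* in fat, and the marker sums of both tissues were higher in KO as given above. Their part was not tested.

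**Figure D5:**
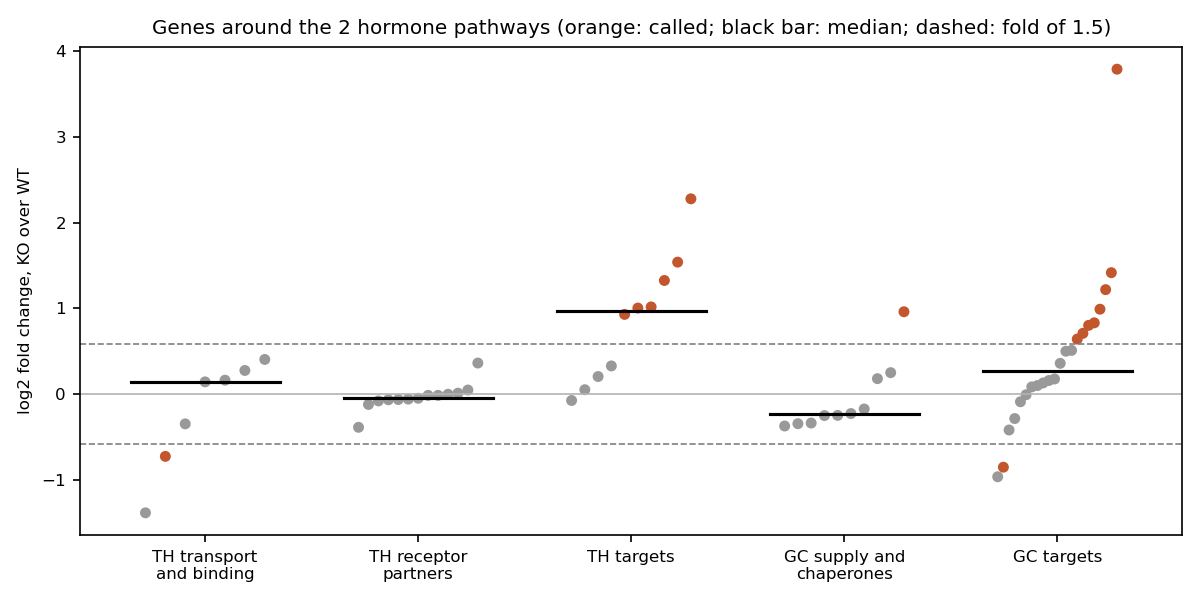
Log2 fold change of KO over WT for each tested gene of 5 groups around thyroid hormone (TH) and glucocorticoid (GC), with called genes in orange, the group median as a black bar and dashed lines at the 1.5-fold threshold. The targets of thyroid hormone have a median of 0.97, whereas receptor partners lie at -0.050 and the glucocorticoid supply and chaperone genes at -0.24, and *Pck1* at 3.79 is the highest point.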

How the data were processed

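The 6 libraries of leg muscle, 3 WT and 3 KO, were used here. The authors trimmed paired reads with Trim Galore 0.6.6, mapped them to mm10 with HISAT2 2.2.1 and counted them per gene with featureCounts 2.0.1 (versions per the labels). The deposited values are raw counts, and the table of the series holds the same values as the files of single samples. The strand setting is not given in the sources used here.

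Gene IDs were matched to GENCODE M21 without version numbers (55227 of 56262), and exon length is the union of annotated exons. Counts were analysed in R 4.3.3 with edgeR 4.0.16 (filterByExpr, TMM, quasi-likelihood F-test on genotype alone). Ratios used a pseudocount of 0.5 counts. Alternatives were RLE, upper-quartile and library-size scaling, DESeq2 1.42.0, limma-voom (limma 3.58.1), other filters and thresholds, a replicate block and leaving out each sample. The tests were tried on simulated data.

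The 10 genes and the pathway and marker lists were chosen with earlier results of these data known. Of the lists, the genes named were those called at a mean of at least 1 CPM, at most 4 per direction and group, plus genes of hormone supply and partnership (*Slc16a10*, *Hsd11b1*, *Hsd11b2*, *Nr3c2*, *Rxra* and *Rxrg*). Some items are not reported here. For the marker lists, *Krt5*, *Krt10*, *Adipoq* and *Ucp1* were named beside the sums, with *Synpo2* as host gene. Other genes of the lists were named after their values were seen. A count of 0 allows up to 0.0293 to 0.0366 CPM, for counting error only.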

Additional observations from a re-analysis of the deposited data

How the results depend on the processing

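The calls of *Klf9*, *Hr* and *Thrb* held in all 14 alternatives of scaling, tool, filter, block and samples, and the other 7 of the 10 genes were called in none of them. The log2 fold change ranged from 1.26 to 1.39 for *Klf9*, from -1.85 to -1.54 for *Hr* and from -1.44 to -1.10 for *Thrb*. With no fold-change threshold, 7 of the 10 were called higher, the thyroid hormone list had 12 higher and 3 lower, and the glucocorticoid list had 15 higher and 9 lower. Of all genes tested, 45% passed the adjusted p without a fold threshold. With a fold change over 2, the thyroid hormone list had 0 lower, and the glucocorticoid list had 3 higher and 0 lower. Leaving out 1 sample at a time gave 1 to 2 genes called lower in each list, the added genes being *Ttr* (-1.88) and *Lcn2* (-1.46) without WT replicate 2. *Hsd11b1*, which passed the test in no case, ranged from -0.64 to 0.27, the change of sign being without WT replicate 1. The ratio of *Dio2* to *Dio3* kept its direction (0.56 to 0.75 on the log2 scale with a sample left out), as did that of *Thrb* to *Thra* (-1.77 to -1.45). Within-genotype deviations of samples that share a number correlated at -0.20, -0.13 and 0.047. With 3 samples per genotype, these values cannot decide whether the numbers pair the samples. With the replicate block, *Klf9* was at 1.32, the members called stayed 1 higher and 2 lower, and over all genes 1744 were higher and 1777 lower, against 1835 and 1852. Among the 10 genes, *Dio3* has the largest counting error, at 10.1% per sample.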

Other observations

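The receptors for both hormones belong to the nuclear receptor family, so a list of 49 such genes, written after the values above were seen, was examined as a family. Of these 40 were tested, and 10 were called higher and 4 lower in KO, with a median log2 fold change of 0.15. Called genes were 35% of the 40, against 16.7% of all genes tested. *Thra*, *Nr3c1* and the retinoid X receptors were among the abundant members with changes under 1.5-fold. The genes called higher included the fatty acid receptors *Ppara* (log2 fold change 1.13) and *Pparg* (0.95), the oxysterol receptor *Nr1h3* (1.17), the clock repressors *Nr1d1* (1.14) and *Nr1d2* (1.03), the estrogen receptors *Esr1* (0.85) and *Esr2* (1.01), *Esrrg* (0.79) and *Nr4a1* (0.71). Beside *Thrb*, the genes called lower were *Rora* (-1.11), *Nr2e3* (-1.64) and the progesterone receptor gene *Pgr* (-1.78). *Rora* fell from 65.4 ± 12.7 to 30.4 ± 3.95 CPM (SD, n = 3 each; edgeR adjusted p = 1.31e-04), whereas *Nr2e3*, *Pgr* and *Esr2* stayed under 1 CPM in both genotypes. *Pparg* rose from 10.01 ± 0.624 to 19.4 ± 0.680 CPM beside the rise of adipocyte markers from 106 to 138 CPM in WT to 340 to 402 CPM in KO, whose part in it was not tested.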
